A study of Mus musculus with 18 samples.

Results

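The 41 genes described here drive or mark cell division: cyclins and their kinase, the machinery that copies DNA, and the proteins that separate chromosomes and cells. They were chosen by gene symbol, and all 41 were found both in the male count table, which holds 38924 genes, and in the female table, which holds 23337. The counts come from RNA sequencing of whole liver, 1 library per mouse, in 18 mice that were 8 weeks old. All were fed a diet in which fat supplied 45% of the energy.

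The first experiment used C57BL6J mice given low-dose penicillin (LDP) from birth, or no antibiotic, weaned at week 4 and put on the high-fat diet at week 6. The LDP males are numbered 8, 10 and 11 and their control males 5, 6 and 7. The LDP females are numbered 39, 52 and 54, with controls numbered 29, 30 and 32. The second experiment used germ-free Swiss Webster females, an outbred stock, colonised at week 3 with microbiota taken either from LDP females, in recipients 2, 5 and 8, or from control females, in recipients 1, 3 and 7. No recipient received penicillin, and the week at which they began the high-fat diet is not given. Libraries of males held 70336366 to 74418889 counts and those of females 17937005 to 28646168. The 5 hepatocyte marker genes summed to 75893 to 179204 CPM (counts scaled to the library total) in every library. Levels are CPM after TMM scaling, set within 1 table only because sex and table are the same split, and a change is a log2 ratio of CPM with its standard error (SE). The labels name separate mice but no cage, litter or donor, so p-values measure the spread between these mice only.

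A resting cell enters division when cyclin D and its partner kinases inactivate the retinoblastoma protein, which frees E2F factors to switch on genes for DNA synthesis. Later, B-MYB and FOXM1, bound through the MuvB complex, switch on the genes of mitosis, while in resting cells the same genes are held down by the DREAM complex. DREAM acts through a promoter element called the CHR and through E2F sites, and many mitotic promoters pair a CHR with CCAAT boxes that bind NF-Y. In the adult liver most hepatocytes are at rest, and young mice complete much of their hepatocyte polyploidisation around and after weaning. Dividing Kupffer, endothelial or blood cells add transcripts of the same genes. In whole liver, fewer dividing cells and less RNA per dividing cell cannot be told apart.

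The letters of these elements were searched in the RefSeq promoter windows of the members (GRCm38.p6, 250 bases before to 50 after the start), which 33 of the 41 had. The CHR was searched as TTTGAA and TTCGAA, the CCAAT box as CCAAT, and E2F sites as TTTCCCGC, TTTGGCGC, TTCCCGCC and TTGGCGCC, on both strands. The E2F strings overlap one another in part, and the CHR and CCAAT matches overlapped in 1 window, that of Cdca8. The windows below are shown because their genes stand at both ends of the results, with the matches in capitals and each window written 5′ to 3′ on the strand of its gene. Prc1 (chr7:80294201-80294500, plus strand) and Bub1b (chr2:118597961-118598260, plus strand) each act in mitosis and hold CHR and CCAAT matches. Cdk1 (chr10:69352863-69353162, minus strand) holds matches of all 3 kinds. Mcm5 (chr8:75109259-75109558, plus strand), a replication gene, holds E2F and CCAAT matches but no CHR. Rrm2 (chr12:24708004-24708303, plus strand) holds a single CCAAT, and Tyms (chr5:30073576-30073875, minus strand) holds no match.
Prc1: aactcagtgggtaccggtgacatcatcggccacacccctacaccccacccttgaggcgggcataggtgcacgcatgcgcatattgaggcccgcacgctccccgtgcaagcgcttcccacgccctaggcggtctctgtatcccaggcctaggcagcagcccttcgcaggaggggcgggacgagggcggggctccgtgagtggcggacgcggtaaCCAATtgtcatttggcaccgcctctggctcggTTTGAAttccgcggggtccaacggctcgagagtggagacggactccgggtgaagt
Bub1b: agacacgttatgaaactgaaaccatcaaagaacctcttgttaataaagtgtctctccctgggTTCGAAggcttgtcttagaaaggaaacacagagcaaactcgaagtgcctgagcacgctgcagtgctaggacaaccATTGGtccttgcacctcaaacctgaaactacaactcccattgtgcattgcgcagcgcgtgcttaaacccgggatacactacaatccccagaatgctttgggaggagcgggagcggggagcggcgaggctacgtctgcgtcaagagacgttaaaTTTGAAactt
Cdk1: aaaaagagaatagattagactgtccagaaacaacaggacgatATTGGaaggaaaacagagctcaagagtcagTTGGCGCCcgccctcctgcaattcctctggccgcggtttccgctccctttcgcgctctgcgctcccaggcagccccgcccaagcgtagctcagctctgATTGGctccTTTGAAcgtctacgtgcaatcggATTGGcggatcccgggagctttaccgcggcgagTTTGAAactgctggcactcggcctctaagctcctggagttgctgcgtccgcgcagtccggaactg
Mcm5: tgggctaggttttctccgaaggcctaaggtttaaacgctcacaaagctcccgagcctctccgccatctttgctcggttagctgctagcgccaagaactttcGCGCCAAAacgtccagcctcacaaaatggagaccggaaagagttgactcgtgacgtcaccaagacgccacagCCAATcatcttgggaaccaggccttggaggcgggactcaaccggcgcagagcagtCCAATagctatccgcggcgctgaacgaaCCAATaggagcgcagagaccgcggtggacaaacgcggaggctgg
Rrm2: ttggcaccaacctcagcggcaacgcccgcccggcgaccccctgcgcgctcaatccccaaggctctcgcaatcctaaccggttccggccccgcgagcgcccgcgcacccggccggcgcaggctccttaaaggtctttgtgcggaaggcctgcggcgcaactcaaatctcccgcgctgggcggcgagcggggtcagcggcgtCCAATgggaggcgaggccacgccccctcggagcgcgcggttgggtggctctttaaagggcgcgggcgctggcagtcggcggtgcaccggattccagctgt
Tyms: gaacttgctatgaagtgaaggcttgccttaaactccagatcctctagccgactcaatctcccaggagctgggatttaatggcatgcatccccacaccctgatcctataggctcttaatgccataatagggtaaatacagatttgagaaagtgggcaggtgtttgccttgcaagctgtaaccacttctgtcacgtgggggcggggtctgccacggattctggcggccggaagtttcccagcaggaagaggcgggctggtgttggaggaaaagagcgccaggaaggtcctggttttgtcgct

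A CHR match was present in 18 of the 33 member windows (54.5%), against 19.2% of all 32851 windows in the table. CCAAT was present in 25 (75.8%, against 37.4%) and an E2F string in 8 (24.2%, against 3.77%). All 18 windows with a CHR also held a CCAAT, a pairing found in 7.52% of all windows. The windows of Top2a, with 4 CHR and 6 CCAAT matches, and of Ube2c, with 1 CHR and 5 CCAAT matches, held the most CCAAT matches, while 7 members, such as Cdkn1a, E2f1 and Birc5, held none of the 3 kinds. A match is a description of the letters and not a binding site.

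Between genes, levels can be compared only per length, which the male table allows. Over the 6 males the members had a median of 0.475 CPM per kilobase, against 0.561 over the 23391 genes with a count. Pcna, the clamp that holds DNA polymerase on its template, was highest with a mean of 8.42 (range 7.91 to 9.29) CPM per kilobase. It was followed by Tk1, which salvages thymidine, at 7.80 (5.31 to 11.4), and by the cyclin Ccnd1 at 5.23 (3.17 to 10.1). The ranges of these 3 overlap, so their order is not firm. Cdkn1a, the p21 inhibitor of cyclin-dependent kinases, stood at 2.74 and Mcm7, a subunit of the replicative helicase, at 2.70 CPM per kilobase.

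Genes of mitosis lay lower than Mcm7. The highest of them was the mitotic kinase Aurka at 0.985 CPM per kilobase. Its mean was above those of the replication genes Mcm2 (0.633) and Mcm5 (0.621), with overlapping ranges. Mki67, which encodes the Ki-67 protein that coats mitotic chromosomes, stood at 0.475 CPM per kilobase and Top2a, the topoisomerase that untangles them, at 0.398. Within the mitotic cyclins and their kinase, Ccnb2 was highest at 0.510 and Ccnb1 lowest at 0.0697, and the ranges of these 2 did not overlap. The lowest 3 members were Cdkn3, a phosphatase that acts on cyclin-dependent kinases, at 0.0955, Ccnb1, and Cdc6, which loads the helicase onto origins, at 0.0611 CPM per kilobase. Their ranges overlap one another, and Cdc6 rested on 4 to 49 counts per male.

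**Figure D1:**
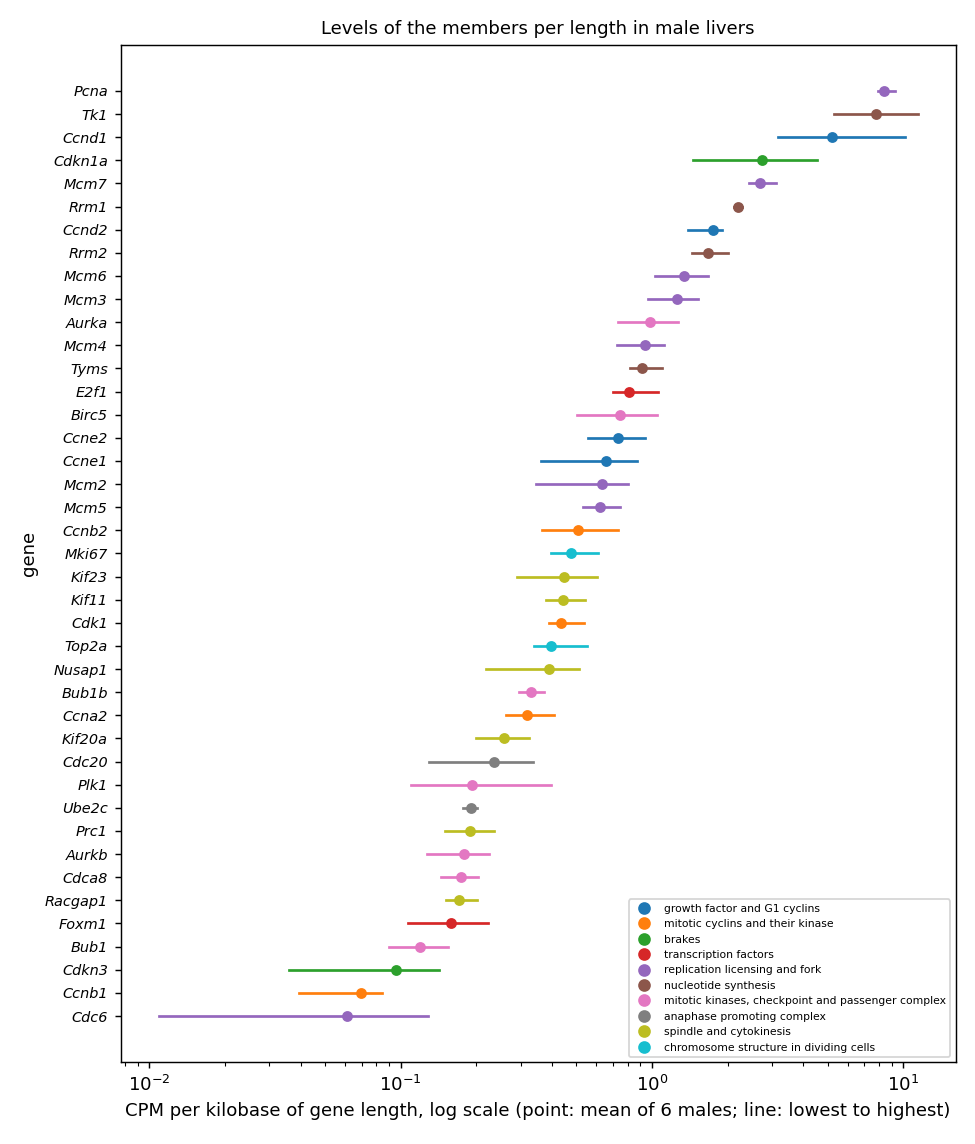
Level of each member in the 6 male livers as CPM per kilobase of gene length, on a log axis, coloured by role. Points are means and lines run from the lowest to the highest mouse; Pcna, Tk1 and Ccnd1 are highest, and Cdc6 is lowest at 0.0611.

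The clearest pattern lay between the 2 experiments on females. Of the 40 members that could be tested, 29 were lower in recipients than in C57BL6J females at an adjusted p under 0.05, and 0 were higher. By edgeR's quasi-likelihood test with Benjamini-Hochberg adjustment, 26.7% of all 13295 genes passed in this comparison, 14.2% lower and 12.6% higher. The median log2 change of the members was -1.24, against 0.00 over all genes tested. In 16 members the 6 recipients all lay below the 6 C57BL6J females, an arrangement seen in 6.64% of all genes tested, and 37 of the 40 had a change below 0, as did 49.4% of all genes. No member had an unadjusted p under 0.05 in the higher direction (0 of 40, against 18.8% of all genes), and DESeq2 called 30 members lower and 0 higher. Strain, with its match to the reference genome, germ-free rearing, colonisation, start of the diet and experiment all follow the same split of mice and cannot be told apart.

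**Figure D2:**
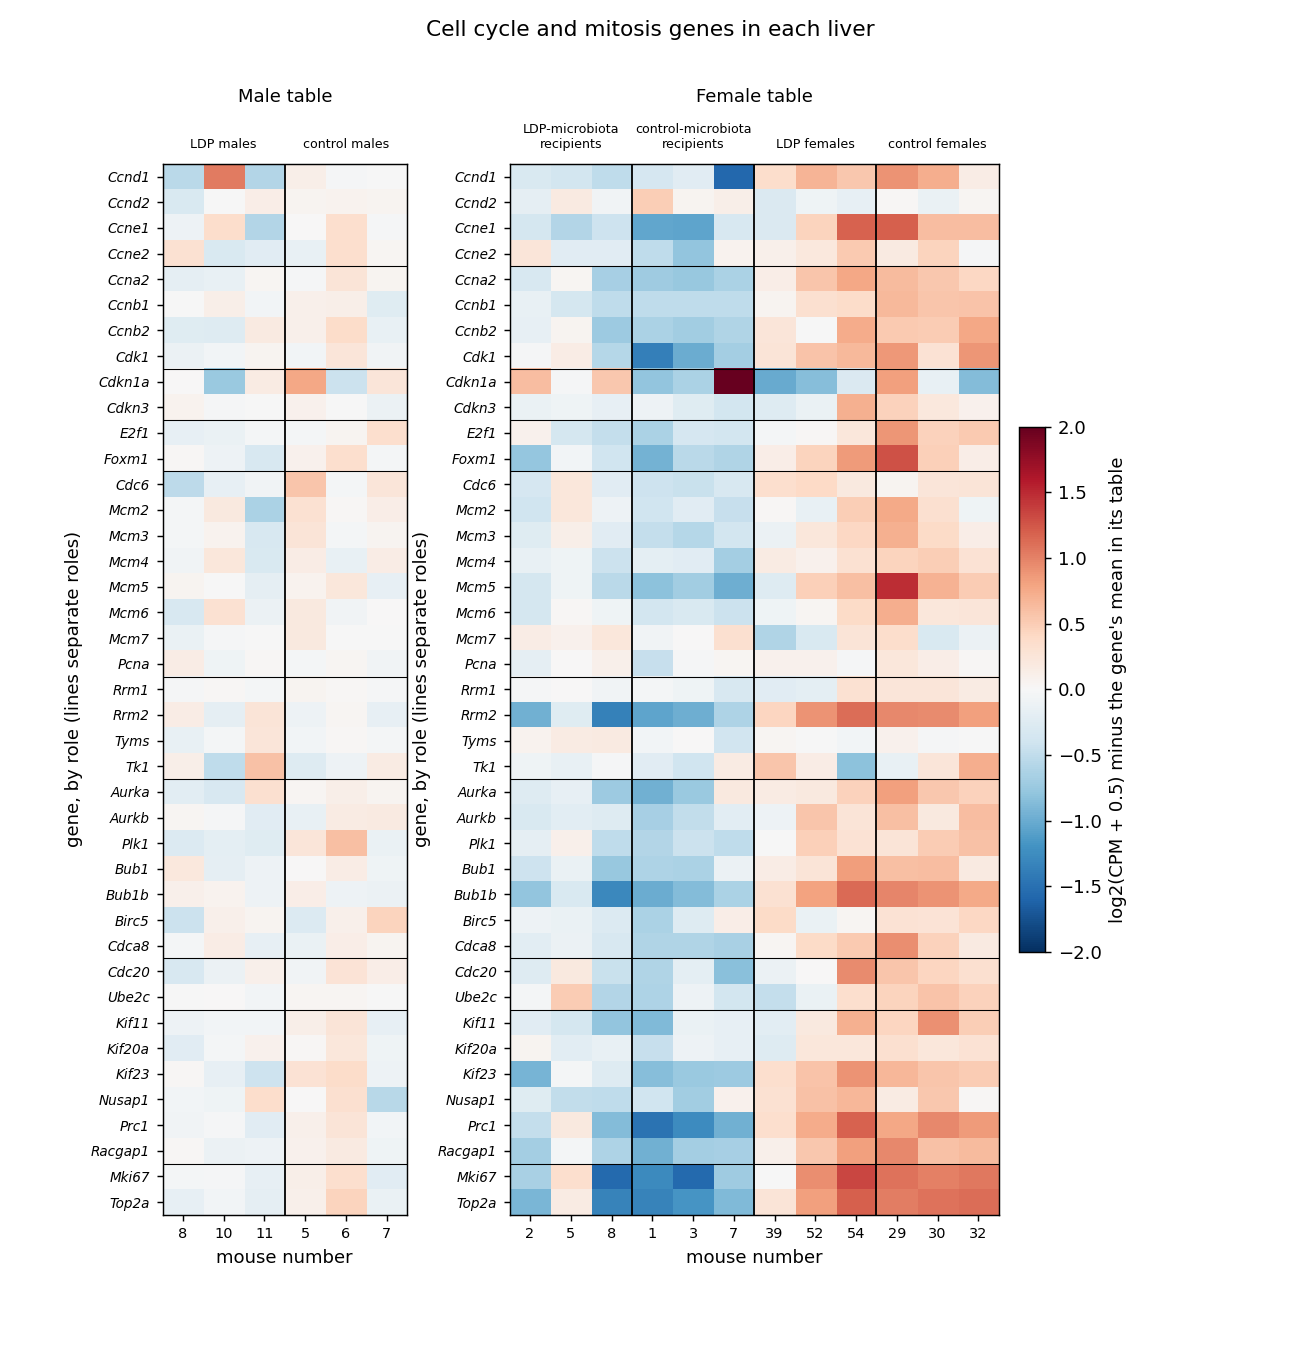
Level of each member in each mouse as log2(CPM + 0.5) minus the gene's mean in its table, with males in the left panel and females in the right one, red above and blue below the mean; colours stop at 2 in each direction, which Cdkn1a exceeds in control-microbiota recipient 7. Most genes are blue in the 6 recipients and red in the 6 C57BL6J females, with LDP female 39 the palest of the C57BL6J females and LDP-microbiota recipient 5 the palest of the recipients.

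The low-count filter bears on the size of this result. For 11 members (Ccnb1, Ccnb2, Foxm1, Cdc6, Aurkb, Plk1, Bub1, Bub1b, Cdc20, Prc1 and Racgap1) fewer than 3 recipients passed the count minimum, so these were tested because of their level in C57BL6J females. Among the 29 members that passed it in both sets of mice, 26 had a change below 0 and 18 were called lower, with a median log2 change of -0.66. Of the 16 members without overlap, Ccnb1, Foxm1, Aurkb, Bub1, Bub1b, Prc1 and Racgap1 belong to the 11. Each recipient had 35 to 39 of the 41 members below the mean of the C57BL6J females. Among the C57BL6J females themselves, LDP female 39 had 37 members below that mean, LDP female 52 had 30, and the other 4 had 6 to 21.

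Both genes of chromosome structure were lower in recipients. Mki67 ranged over 0.857 to 4.56 CPM (median 1.56) in the 6 recipients and over 3.47 to 9.58 CPM (median 7.68) in the 6 C57BL6J females. Its log2 change was -2.01 ± 0.38 (SE; edgeR adjusted p = 0.00266), and the sets overlapped only because LDP-microbiota recipient 5 (4.56 CPM) lay above LDP female 39 (3.47 CPM). Top2a ranged over 0.748 to 3.04 CPM (median 1.04) in recipients and 3.27 to 6.77 CPM (median 6.05) in C57BL6J females. The sets of Top2a values did not overlap (log2 change -2.16 ± 0.30, edgeR adjusted p = 0.000248).

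All 4 mitotic cyclins and kinase genes passed, Ccnb1 and Ccnb2 being tested because of their level in C57BL6J females. Cdk1, the kinase that starts mitosis, ranged over 0.303 to 1.79 CPM (median 0.845) in recipients and 1.97 to 3.31 CPM (median 2.67) in C57BL6J females, a log2 change of -1.59 ± 0.24 (edgeR adjusted p = 0.000373). Its partner in S phase and G2, Ccna2, ranged over 0.812 to 1.79 CPM in recipients and 1.93 to 3.27 CPM in C57BL6J females, a log2 change of -1.33 ± 0.19 (edgeR adjusted p = 0.000297). Neither gene overlapped between the sets. Ccnb1, the main mitotic cyclin, had 4 counts over all 6 recipients, with 0 in each control-microbiota recipient, and 58 counts over the 6 C57BL6J females (edgeR adjusted p = 0.000443). No fold is given for Ccnb1 at this depth. Ccnb2 ranged over 0.299 to 0.868 CPM in recipients and 0.815 to 1.75 CPM in C57BL6J females, so the sets touched (-1.55 ± 0.28, edgeR adjusted p = 0.00123). The mouse annotation holds pseudogenes named after Ccnb1, Ccnb2, Tyms and Pcna, and how reads shared with them were counted is not given, so these 4 are uncertain.

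Of the 6 spindle and cytokinesis genes, 5 were called lower in recipients. Prc1 and Racgap1 were tested because of their level in C57BL6J females. Prc1, which bundles the microtubules of the central spindle, ranged over 0.0505 to 1.25 CPM (median 0.308) in recipients and 1.42 to 2.95 CPM (median 2.19) in C57BL6J females, a log2 change of -2.71 ± 0.35 (edgeR adjusted p = 0.000104). Racgap1 and Kif23, the 2 proteins of the centralspindlin complex that directs the cleavage furrow, reached at most 0.922 and 1.36 CPM in recipients, against a lowest value of 1.07 and 1.89 CPM in C57BL6J females. Their log2 changes were -1.92 ± 0.26 and -1.61 ± 0.22 (edgeR adjusted p = 0.000181 and 0.000189). In all 3 genes every recipient lay below every C57BL6J female. The spindle motor Kif11 (-1.09) and the microtubule binder Nusap1 (-1.16) also passed, with overlapping sets, while the motor Kif20a did not (-0.44 ± 0.16, edgeR adjusted p = 0.0573).

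All 7 mitotic kinase, checkpoint and passenger genes were called lower. Of these, Aurkb, Plk1, Bub1 and Bub1b were tested because of their level in C57BL6J females. Bub1b, a spindle checkpoint protein, ranged over 0.112 to 0.705 CPM (median 0.340) in recipients and 1.34 to 2.76 CPM (median 2.19) in C57BL6J females, a log2 change of -2.57 ± 0.32 (edgeR adjusted p = 8.42e-05). The checkpoint kinase Bub1 had 0 to 6 counts per recipient and 10 to 22 per C57BL6J female (-2.36 ± 0.52, edgeR adjusted p = 0.00492). Cdca8, or borealin, a subunit of the chromosomal passenger complex, ranged over 0.373 to 0.759 CPM in recipients and 0.907 to 2.12 CPM in C57BL6J females (-1.38 ± 0.23, edgeR adjusted p = 0.000723). None of these 3 overlapped between the sets. The kinase of the same complex, Aurkb, changed by -1.55 and its subunit Birc5, or survivin, by -0.52 (edgeR adjusted p = 0.0472), the smallest change of the 29. Birc5 no longer passed when any 1 of 10 of the 12 mice was left out. The centrosomal kinase Aurka (-1.04) and Plk1 (-1.53), which acts from mitotic entry to cytokinesis, passed with overlapping sets.

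The anaphase-promoting complex is represented by its activator Cdc20 and by its ubiquitin-conjugating enzyme Ube2c. Cdc20 was lower in recipients, with 0.140 to 0.814 CPM against 0.552 to 1.70 CPM in C57BL6J females (-1.33 ± 0.37, edgeR adjusted p = 0.0176). Ube2c stood at 0.354 to 1.36 CPM in recipients and 0.434 to 1.44 CPM in C57BL6J females and did not pass (-0.61 ± 0.32, edgeR adjusted p = 0.186). Both transcription factors passed. Cdc20 and Foxm1 were tested because of their level in C57BL6J females. Foxm1 ranged over 0.152 to 0.705 CPM in recipients and 0.868 to 2.51 CPM in C57BL6J females, without overlap (-1.94 ± 0.36, edgeR adjusted p = 0.00148). E2f1 ranged over 1.16 to 2.23 CPM in recipients and 2.01 to 4.23 CPM in C57BL6J females, with overlap (-0.84 ± 0.17, edgeR adjusted p = 0.00249).

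Replication and nucleotide genes were divided. Of the 8 replication genes, 5 were called lower: Cdc6 (-1.44), Mcm3 (-0.66), Mcm4 (-0.66), Mcm5 (-1.45) and Mcm6 (-0.56). Cdc6 was tested because of its level in C57BL6J females. Mcm5 ranged over 1.03 to 2.33 CPM (median 1.46) in recipients and 2.01 to 7.85 CPM (median 3.91) in C57BL6J females (edgeR adjusted p = 0.000571), with control female 29 highest and overlap at LDP female 39. The other helicase subunits Mcm2 (-0.56 ± 0.20, edgeR adjusted p = 0.0546) and Mcm7 (0.22 ± 0.16, edgeR adjusted p = 0.324) did not pass, nor did Pcna (-0.18 ± 0.10, edgeR adjusted p = 0.194).

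Among the 4 nucleotide synthesis genes only Rrm2 passed, and it had the smallest p of all members. Rrm2, the small subunit of ribonucleotide reductase that is made in S phase, ranged over 0.897 to 2.49 CPM (median 1.31) in recipients and 4.30 to 7.23 CPM (median 6.22) in C57BL6J females, without overlap. Its log2 change was -2.01 ± 0.22 (edgeR adjusted p = 2.97e-05). The large subunit Rrm1 changed by -0.19 ± 0.11 and Tk1 by -0.31 ± 0.22, and neither passed (edgeR adjusted p = 0.209 and 0.321). Tyms, which makes thymidylate, stood at 4.80 to 7.36 CPM in recipients and 6.17 to 6.85 CPM in C57BL6J females. Its log2 change was -0.00 ± 0.10 (edgeR adjusted p = 0.989).

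The G1 cyclins were mixed too. Ccnd1, the cyclin D that mitogens induce in hepatocytes, reached at most 82.0 CPM (median 75.3) in recipients and ranged over 107 to 179 CPM (median 147) in C57BL6J females, without overlap (-1.08 ± 0.21, edgeR adjusted p = 0.00336). Ccne1, which activates the kinase of the G1 to S transition, ranged over 0.451 to 1.07 CPM in recipients and 1.10 to 4.01 CPM in C57BL6J females, also without overlap (-1.76 ± 0.32, edgeR adjusted p = 0.00143). Ccne2 (-0.65 ± 0.24, edgeR adjusted p = 0.0665) and Ccnd2 (0.21 ± 0.10, edgeR adjusted p = 0.148) did not pass. Of the brakes, Cdkn1a stood at 5.61 to 64.0 CPM in recipients and 4.77 to 18.2 CPM in C57BL6J females (1.19 ± 0.62, edgeR adjusted p = 0.19). Cdkn3 was too low to test, with 0 to 2 counts per recipient and 1 to 12 per C57BL6J female.

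**Figure D3:**
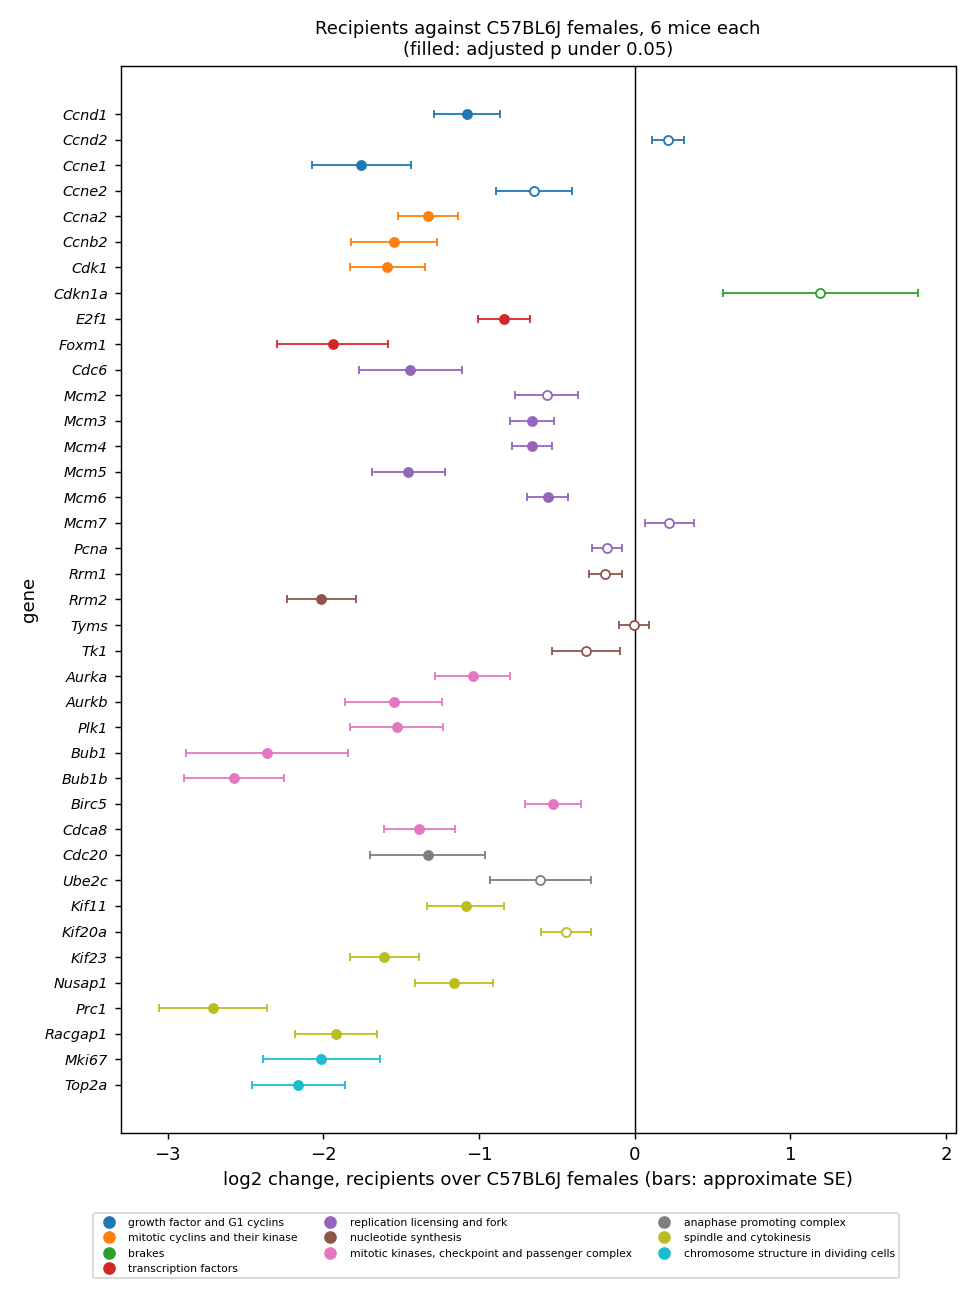
Log2 change of 39 members between the 6 recipients and the 6 C57BL6J females, with bars of 1 approximate SE; Ccnb1 (4 counts in all recipients) and Cdkn3 (not tested) are left out. Filled points passed an adjusted p of 0.05, all of them below 0, and Prc1 at -2.71 lies farthest left.

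In the promoter windows printed above, Prc1, Bub1b and Cdk1 carry CHR matches and were lower in recipients, but so were Mcm5 and Rrm2, which carry none, while Tyms carries none and did not pass. Over all windows, 14 of the 24 called members and 4 of the other 9 held a CHR match. The called members include Ccnb1, Ccnb2, Cdc6, Plk1, Bub1, Bub1b, Cdc20, Prc1 and Racgap1, tested because of their level in C57BL6J females. All of these but Ccnb1 and Cdc6 held a CHR match. The other 9 include Cdkn3, which held a CHR match but was too low to test.

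The split was also present between the groups that had neither penicillin nor microbiota of LDP mice. A comparison of 3 control-microbiota recipients against 3 control females was added after the data were seen. In it edgeR called 25 members lower, all of them among the 29, and 0 higher, with a median of -1.48. The low-count filter, scaling and spread came from all 12 female libraries. The 11 members tested because of their level in C57BL6J females were thus kept in it. Of all genes tested, 1346 passed there, 743 of them lower.

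Other genes of the cell cycle were read for comparison. Of 86 on that list, 81 were tested, 40 were called lower and 2 higher in recipients, with a median of -0.62. Of all genes tested, 14.2% were called lower and 12.6% higher. Between the recipient groups alone only 55 of the 86 passed the low-count filter, so some of the 81 were tested because of their level in C57BL6J females. The 4 of smallest p were Stmn1 (-2.46), which destabilises microtubules, Ccnf (-1.99), a subunit of an ubiquitin ligase, Cep55 (-2.04), which acts in the final cut between daughter cells, and Uhrf1 (-2.06), which maintains DNA methylation, with edgeR adjusted p of 1.93e-05 to 0.000198. Of these, Stmn1, Cep55 and Uhrf1 were low in recipients, where they reached at most 0.420, 0.187 and 0.488 CPM. The 2 that rose were Cdkn1c, the p57 inhibitor (0.97, edgeR adjusted p = 0.000712), and Cdk4, the kinase partner of cyclin D (0.25, edgeR adjusted p = 0.0227). Of 16 p53 targets, 4 were lower and 0 higher, with a median of -0.20 (1 of them had an unadjusted p under 0.05 in the higher direction).

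Markers of other cells were read as well, and their part in the result was not tested. In recipients, edgeR called 2 of 5 Kupffer cell, 2 of 5 monocyte, 3 of 5 tested B and plasma cell and 3 of 5 stellate cell markers lower and 0 of them higher, while 0 of 5 tested T and NK cell and 0 of 5 bile duct markers passed (1 in each had an unadjusted p under 0.05, lower). Of the B and plasma cell markers, 4 had an unadjusted p under 0.05 in the lower direction and 1 in the higher one. In addition 1 of 5 hepatocyte and 1 of 3 tested neutrophil markers were lower, 1 of 2 tested erythroid markers was higher, and of 5 sinusoidal endothelium markers 1 was lower and 1 higher. Of all genes tested, 14.2% were called lower and 12.6% higher. Summed Kupffer cell markers were 373 to 542 CPM in recipients and 441 to 619 CPM in C57BL6J females, and summed monocyte markers 40.9 to 62.9 and 52.2 to 86.0 CPM. Summed stellate cell markers were 201 to 338 CPM in recipients and 307 to 401 CPM in C57BL6J females, and B and plasma cell markers 2.22 to 5.69 and 3.52 to 8.32 CPM. All 4 sums overlapped between the sets. Of single markers, 1 Kupffer cell, 2 stellate cell, 1 neutrophil, 1 sinusoidal endothelium and 1 hepatocyte marker were lower in every recipient than in every C57BL6J female. That arrangement was seen in 6.64% of all genes tested. Each marker of these 4 lists had at least 1 count in each group.

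**Figure D4:**
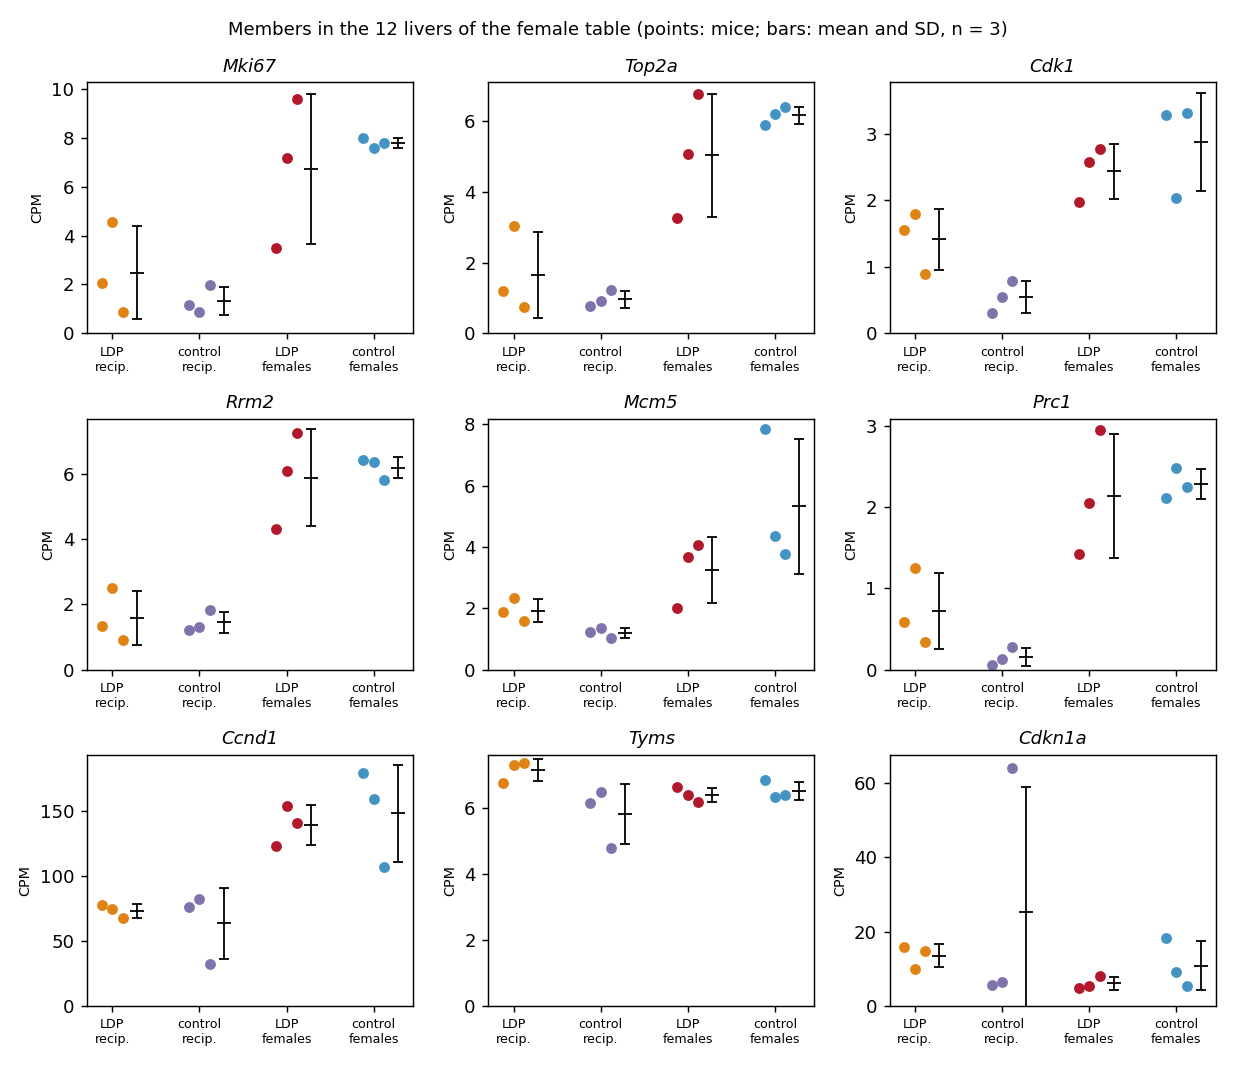
CPM of 9 members in the 12 livers of the female table, with a point for each mouse and a bar for the mean and SD of 3 mice; the SD bar of Cdkn1a in control-microbiota recipients is cut at 0. Top2a, Cdk1, Rrm2, Prc1 and Ccnd1 separate the 6 recipients from the 6 C57BL6J females, and Tyms does not.

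The study asks what early penicillin does to the liver, and the same members were compared between LDP and control mice. In males, edgeR tested 40 members and 0 passed, while 0.00648% of all 15438 genes did. Values lay below 0 in 32 of the 40 and above 0 in 8, against 49.3% of all genes below 0, with a median log2 change of -0.17 for the members and 0.00 for all genes. An unadjusted p under 0.05 was found for Plk1 and Cdc6, both lower, as for 2.06% of all genes in that direction, and DESeq2 called 0 members, leaving 12 without an adjusted p. Each LDP male had 30 or 31 of the 41 members below the mean of the control males. Median differences were -0.151, -0.095 and -0.117 on the log2 scale in LDP males 8, 10 and 11. Each control male was set against the mean of the other control males. Control male 7 had 33 members below that mean and control male 6 had 12. Median differences were 0.002, 0.174 and -0.069 in control males 5, 6 and 7. Control male 7 thus had as many members lower as the LDP males, though by a smaller median.

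Plk1 stood at 0.242, 0.288 and 0.259 CPM in LDP males 8, 10 and 11, against 0.564, 0.873 and 0.318 CPM in control males 5, 6 and 7. Every LDP male lay below every control male, the closest being LDP male 10 and control male 7 (22 and 23 counts). The log2 change was -1.15 ± 0.39 with an unadjusted p of 0.0169 and an edgeR adjusted p of 0.92. Cdc6 had 4, 16 and 18 counts in LDP males and 49, 20 and 32 counts in control males, again without overlap (-1.39 ± 0.52, unadjusted p 0.0260, edgeR adjusted p = 0.92). These 2 and Mcm7 (10.8, 11.7 and 11.8 CPM in LDP males, 13.8, 11.8 and 11.8 CPM in control males; log2 change -0.13, apart only before rounding) were the members whose LDP males all lay lower, as in 4.81% of all genes.

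Other members stood close in males. Mki67 had 4.58, 4.64 and 4.17 CPM in LDP males and 5.19, 6.12 and 3.99 CPM in control males, with control male 7 the lowest of all 6. Top2a had 3.12, 3.38 and 3.05 CPM in LDP males and 3.81, 4.98 and 3.18 CPM in control males (-0.33 ± 0.17, edgeR adjusted p = 0.92). Ccnd1 was uneven, with 12.6, 38.8 and 12.2 CPM in LDP males and 20.1, 18.2 and 18.4 CPM in control males. LDP male 10 was thus the highest of the 6 for Ccnd1 and the other LDP males the lowest. Tk1 had 42.8, 27.6 and 59.2 CPM in LDP males and 32.7, 36.8 and 44.1 CPM in control males, so its LDP males lay at both ends.

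In females, edgeR tested 39 members and 0 passed, as did 0% of all 12914 genes. Log2 changes lay below 0 in 36 of the 39 and above 0 in 3 (Ccne2, Kif23 and Nusap1), against 49.1% of all genes below 0, with a median log2 change of -0.25 for the members and 0.00 for all genes. E2f1 and Ube2c had an unadjusted p under 0.05, both lower, as for 1.82% of all genes in that direction, and DESeq2 called 0 members, leaving 4 without an adjusted p. The 3 LDP females differed from one another: 36 of the 41 members lay below the mean of the control females in LDP female 39 (median difference -0.49 on the log2 scale), 34 in LDP female 52 (-0.18) and 19 in LDP female 54 (0.01). Without LDP female 39, 27 of 39 members were lower and the median was -0.10, and without control female 29 the median was -0.13. Without LDP female 54 the median was -0.42.

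E2f1, which turns on genes of DNA synthesis, had 2.01, 2.10 and 2.49 CPM in LDP females 39, 52 and 54, against 4.23, 3.03 and 3.18 CPM in control females 29, 30 and 32. The groups did not overlap (-0.66 ± 0.20, unadjusted p 0.00985, edgeR adjusted p = 0.999). Ube2c had 0.434, 0.686 and 1.15 CPM in LDP females and 1.28, 1.44 and 1.29 CPM in control females, also without overlap (-0.83 ± 0.35, unadjusted p 0.0401, edgeR adjusted p = 0.999). With Ccnb1 (6, 9 and 9 counts in LDP females, 11, 11 and 12 in control females) and Aurka, these were the 4 members whose LDP females all lay lower, as in 4.38% of all genes. Ccnb1, Aurkb, Plk1, Bub1 and Ube2c had fewer than 3 LDP or 3 control females past the count minimum.

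Mki67, Top2a and Rrm2 were lowest in LDP female 39 and highest in LDP female 54 of the 6 C57BL6J females. Mki67 had 3.47, 7.16 and 9.58 CPM in LDP females 39, 52 and 54, against 8.02, 7.59 and 7.78 CPM in the control females (mean 6.74 ± 3.08 CPM in LDP females and 7.79 ± 0.215 CPM in control females, SD, n = 3 each). The controls lay close together. Top2a had 3.27, 5.06 and 6.77 CPM in LDP females and 5.90, 6.20 and 6.40 CPM in control females. Rrm2 had 4.30, 6.09 and 7.23 CPM in LDP females and 6.40, 6.35 and 5.80 CPM in control females. Ccnd1 had 123, 154 and 140 CPM in LDP females and 179, 159 and 107 CPM in control females, and did not share that order.

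Of 29 members tested between LDP-microbiota and control-microbiota recipients, 25 were higher and 4 lower, against 48.4% of all 12780 genes higher, with a median log2 change of 0.26 for the members and -0.01 for all genes. By edgeR 0 members passed, as 0.00782% of all genes did, and 3 (Cdk1, Mcm5 and Cdca8) had an unadjusted p under 0.05, all higher, as for 2.25% of all genes. DESeq2 called 0, but gave no adjusted p to any of the 29. The 12 members below the low-count filter were Ccnb1, Ccnb2, Cdkn3, Foxm1, Cdc6, Aurkb, Plk1, Bub1, Bub1b, Cdc20, Prc1 and Racgap1.

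Over all 41 members, 37 lay above the mean of the control-microbiota recipients in LDP-microbiota recipient 5, 35 in recipient 2 and 25 in recipient 8. Among the controls, each set against the mean of the other controls, recipient 7 had 27 above that mean, recipient 3 had 19 and recipient 1 had 9. Without LDP-microbiota recipient 5 the median was 0.11, with 22 of 29 tested members higher. Without control-microbiota recipient 7 it was 0.40.

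Cdk1 had 1.55, 1.79 and 0.897 CPM in LDP-microbiota recipients 2, 5 and 8, against 0.303, 0.542 and 0.793 CPM in control-microbiota recipients 1, 3 and 7. These rest on 24 to 34 and 6 to 17 counts, and the groups did not overlap (1.33 ± 0.42, unadjusted p 0.0109, edgeR adjusted p = 0.846). Mcm5 had 1.86, 2.33 and 1.57 CPM in LDP-microbiota recipients and 1.21, 1.35 and 1.03 CPM in control-microbiota recipients (0.67 ± 0.27, unadjusted p 0.0327, edgeR adjusted p = 0.846). Cdca8 had 15, 14 and 16 counts in LDP-microbiota recipients and 8, 9 and 8 counts in control-microbiota recipients (0.76 ± 0.34, unadjusted p 0.0492, edgeR adjusted p = 0.846). With Mcm3 and Tyms these were the 5 members whose LDP-microbiota recipients all lay higher, as in 6.6% of all genes. Ccne1, Cdk1, Cdca8, Ube2c and Nusap1 had fewer than 3 mice past the count minimum in 1 of the groups.

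Mki67 had 2.05, 4.56 and 0.860 CPM in LDP-microbiota recipients and 1.16, 0.857 and 1.96 CPM in control-microbiota recipients, so the groups overlapped and recipient 5 stood apart (0.88 ± 0.60, edgeR adjusted p = 0.846). Prc1, untested, had 13, 23 and 9 counts in LDP-microbiota recipients and 1, 3 and 6 counts in control-microbiota recipients. Its groups did not overlap. Cdkn1a had 15.7, 9.87 and 14.8 CPM in LDP-microbiota recipients and 5.61, 6.32 and 64.0 CPM in control-microbiota recipients, with control-microbiota recipient 7 far above the rest (-0.91 ± 0.95, edgeR adjusted p = 0.875). The same mouse was the lowest of the 12 females for Ccnd1, with 686 counts.

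**Figure D5:**
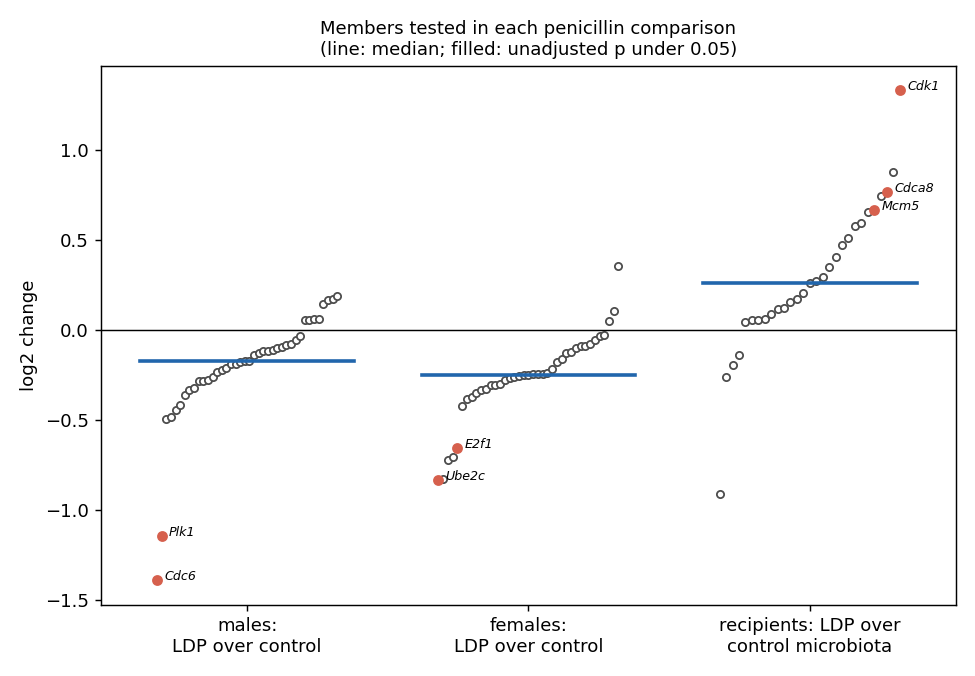
Log2 change of each tested member between LDP and control males (40 members), LDP and control females (39), and LDP-microbiota and control-microbiota recipients (29), sorted by size within each comparison, with the median as a line. Filled points had an unadjusted p under 0.05 and none passed after adjustment; medians were -0.17, -0.25 and 0.26.

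Because a shift in 1 experiment and not in another shows no difference, the differences of effects were tested themselves. The effect of LDP microbiota in recipients minus that of LDP in females was above 0 in 37 of 40 members, with a median of 0.62, against 50.3% of all 13295 genes. By edgeR 0 members passed, as did 0% of all genes. Unadjusted p under 0.05 was found for 9 members, all above 0 (Cdk1, Prc1, Mcm5, E2f1, Ccnb1, Cdca8, Mcm3, Ube2c and Mcm6), where 2.99% of all genes had one in that direction. The 11 members with fewer than 3 recipients past the count minimum entered all these counts because of their level in C57BL6J females. Ccnb1 and Prc1 are among those 11, and Ccnb1 had 4 counts over all 6 recipients. DESeq2 called 0 members and left 3 without an adjusted p. For Cdk1 the difference was 1.58 ± 0.48 and for Mcm5 1.39 ± 0.46 (unadjusted p 0.00600 and 0.0104, edgeR adjusted p = 0.788 for both). Without LDP-microbiota recipient 5 the median difference was 0.35.

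The effect of LDP in females minus that in males had a median of -0.08 over 41 members, with 28 below 0, against 47.3% of all 12747 genes. By edgeR 0 passed, as did 0% of all genes, and Cdc6 alone had an unadjusted p under 0.05 (1.64 ± 0.69, unadjusted p 0.0330, edgeR adjusted p = 1), as 1.48% of all genes did in that direction. DESeq2 called 0 members. The median changed sign with the mouse left out: it was 0.067 without LDP female 39 and -0.26 without LDP female 54.

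Of the other cell cycle genes, edgeR tested 82 in males, 80 in females and 55 in recipients and called 0 of them, with medians of -0.00, -0.11 and 0.07 on the log2 scale. Unadjusted p under 0.05 was found for 0 of them in males, 8 in females, all lower, and 2 in recipients, both higher. Of all genes, 1.82% had one in the lower direction in females and 2.25% in the higher direction in recipients. Of the p53 targets 0 passed in any of these comparisons, with unadjusted p under 0.05 for 1 lower in males, 1 higher in females and 0 in recipients. Summed Kupffer cell markers were 269 to 296 CPM in LDP males and 315 to 390 CPM in control males, and summed monocyte markers 42.9 to 44.6 and 48.1 to 55.3 CPM, without overlap in either. Summed hepatocyte markers were 91013 to 101172 CPM in LDP males and 75893 to 86423 CPM in control males, also without overlap. Singly, 4 of the 5 hepatocyte markers were higher and 1 lower, with a median log2 change of 0.02. Only 1 of them did not overlap, and 0 passed in edgeR. All 5 Kupffer cell markers were lower singly in LDP males, 3 with an unadjusted p under 0.05 and 2 without overlap. Of the 5 monocyte markers, 4 were lower and 1 higher. Among the lower ones 2 had an unadjusted p under 0.05 and 1 did not overlap. In edgeR 0 markers of both lists passed. Of all genes, 2.06% had such a p in the lower direction and 4.81% lay lower without overlap. The part of Kupffer cells, monocytes and hepatocytes in the members' values in LDP males was not tested. In LDP and control females the sums of all marker lists overlapped. All 5 monocyte markers had a log2 change above 0 there and 0 passed in edgeR (0 with an unadjusted p under 0.05), with sums of 71.2 to 86.0 CPM in LDP females and 52.2 to 74.3 CPM in control females. Of the 5 stellate cell markers 3 were higher and 2 lower, with such a p for 2, both higher. Such a p was also found for 1 T and NK cell and 1 B and plasma cell marker, both higher. Of the sinusoidal endothelium markers 1 had it higher and 1 lower. Of all 12914 genes, 347 had it in the higher direction, and 0 of these markers passed in edgeR. In recipients, summed stellate cell markers were 309 to 338 CPM with LDP microbiota and 201 to 265 CPM with control microbiota, without overlap. Singly, 4 of the 5 stellate cell markers were higher and 1 lower, with a median log2 change of 0.05. Only 1 of them did not overlap, and 0 passed in edgeR. The sums of the other marker lists overlapped, those of Kupffer cells at 397 to 477 CPM with LDP microbiota and 373 to 542 CPM with control microbiota. Their part in the members' values was not tested.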

How the data were processed

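Per the labels' protocols, liver RNA came from an RNeasy Mini extraction, and TruSeq v2 was used for the libraries. The mm10 genome, featureCounts 1.4.3-p1, HTSeq 0.5.3p9, STAR 2.3.0e and DESeq are listed in the submitters' processing notes. The role of each tool, strandedness and the treatment of reads that match more than 1 gene are not given in the sources used here, so paralogs, pseudogenes and antisense genes are uncertain. Raw counts per gene were deposited, 1 column per mouse, in a table for the 6 males (with a gene length in bases, given by the authors) and another for the 12 females, and 0 columns were left unmatched. Of the 38924 male IDs, 37607 were matched to a symbol through GENCODE M21, and 20058 names are in both tables.

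After filterByExpr (count minimum of 10, total of at least 15) and TMM scaling, edgeR 4.0.16 in R 4.3.3 fitted every gene and gave quasi-likelihood F tests with robust dispersions, with Benjamini-Hochberg adjustment over all genes tested and a threshold of 0.05. The SE was derived from the F statistic and is approximate. Each comparison of LDP with control used its own 6 libraries. Recipients against C57BL6J females and the difference of effects between them used the 12 female libraries, and the difference between sexes the genes that the tables share, each group having its own coefficient. The fit was tested on simulated data. Values for single mice carry counting error, which is large for members with few counts.

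The members, lists and rules were chosen with earlier results of these data known. Members were given statistics and their values where they passed or had an unadjusted p under 0.05 (up to 12 per comparison) or had the highest or lowest level per length of their role; of other lists, up to 4 genes of smallest p were named. Statistics over a list are counts and medians, with no test over the list. Alternatives were DESeq2 1.42.0, other scaling factors, other low-count filters, a fit that is not robust, a shared spread, and leaving out each mouse.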

Additional observations from a re-analysis of the deposited data

How the results depend on the processing

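No paired analysis was possible because the groups compared share no replicate numbers. No member called in recipients against C57BL6J females changed sign under any of the 16 alternatives, and 25 of the 29 stayed called in each. Birc5 lost its call under 12 of them, 10 of which left out a mouse and 1 of which had no filter on low counts, and Bub1, Cdc20 and Nusap1 lost theirs with the control groups only. Mcm2 was gained by DESeq2, and Mcm2, Ccne2 or Kif20a by leaving out some mice. The members called in the comparisons of LDP with control stayed at 0. The number of genes called among all genes did change. For LDP against control males it was 1 by edgeR, 42 by DESeq2, 2 with no filter on low counts and 0 to 66 with a mouse left out, the 66 without LDP male 11. For LDP against control females it was 0, and 15 by DESeq2, 1 with no filter and 0 to 1 with a mouse left out, the 1 without LDP female 39. For LDP-microbiota against control-microbiota recipients it was 1, and 28 by DESeq2, 2 with no filter, 3 with the 12 female libraries sharing the spread and 0 to 4 with a mouse left out, the 4 without LDP-microbiota recipient 8. For the difference between recipients and treated females it was 0, and 12 by DESeq2 and 0 to 3 with a mouse left out, the 3 without LDP-microbiota recipient 8. For the difference between females and males it was 0, and 1 by DESeq2 and 0 to 1 with a mouse left out, the 1 without LDP male 10. The causes were not tested.

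For recipients against C57BL6J females, 3556 genes passed, 2806 to 3767 with a mouse left out and 1346 with the control groups only. That last contrast compares fewer mice within the fit of all 12 female libraries and was chosen after the data were seen. Between recipients and C57BL6J females the members called lower numbered 29, 28 to 30 with a mouse left out and 25 with the control groups only. The median of the members tested was -1.35 to -1.09 with a mouse left out. The median of the members ranged over -0.20 to -0.10 in males, -0.42 to -0.10 in females and 0.11 to 0.40 in recipients with a mouse left out. The median difference between recipients and treated females ranged over 0.35 to 0.80, lowest without LDP-microbiota recipient 5, and that between females and males over -0.26 (without LDP female 54) to 0.067 (without LDP female 39). Scaling moved the median of all genes by less than 0.1 on the log2 scale. Between the recipient groups 12 of the 41 members fell below the low-count filter, against 2 in females and 1 in males, although recipient libraries (18723235 to 28646168 counts) were of like depth to those of C57BL6J females (17937005 to 25703227). With no filter, 36 of the 41 had a change above 0 in recipients, 3 with an unadjusted p under 0.05, and 0 passed.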

Other observations

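Targets of p53 were read beside Cdkn1a, itself one of them, because control-microbiota recipient 7 stood apart for that gene at 64.0 CPM. This was done after the values were seen, and it is given with no test. Of the 16 other p53 targets read, recipient 7 was the highest of the 3 control-microbiota recipients for 9, the lowest for 2 and between the others for 5. The same places were not counted over all genes, so there is no share to set beside these counts. Btg2 had 6.92, 7.90 and 14.1 CPM in control-microbiota recipients 1, 3 and 7, and Bbc3 had 4.30, 4.33 and 6.16 CPM, so recipient 7 was highest for both. Zmat3 was also highest there but nearly level, at 6.17, 6.09 and 6.20 CPM. Ccng1 had 49.2, 39.6 and 36.3 CPM, with recipient 7 the lowest.

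The 2 cell cycle genes that rose in recipients differ in level. Cdkn1c averaged 5.95 ± 0.842 CPM in recipients and 3.03 ± 0.686 CPM in C57BL6J females (SD, n = 6 each). Cdk4 averaged 36.0 ± 3.05 CPM in recipients and 30.3 ± 2.27 CPM in C57BL6J females.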
